A study of Mus musculus with 40 samples.

Results

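The 10 macrophage genes Csf1r, Cd68, Emr1, Mrc1, Cd163, Itgam, Lyz1, Lyz2, Marco and C1qa were followed through mouse mammary glands. In some of these glands the histone methyltransferase gene Ezh1 or Ezh2 had been deleted, and others were controls. The 10 genes were chosen by name, with earlier results of these data known. Apart from Lyz1, which is known from intestinal Paneth cells, they are established genes of the macrophage lineage. The 10 genes were read by symbol among the 22552 genes of the authors' expression table. All 10 were found, Emr1 under this older symbol of Adgre1. All 10 also passed the filter on low values, which required at least 1 FPKM in at least 1 group and left 14273 genes. FPKM counts mapped fragments relative to transcript length and library size, so levels are per length and can be set beside each other between genes.

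Poly(A) RNA of whole mammary tissue from outbred mice was sequenced in 31 libraries, which form 12 groups. On days 13 (p13) and 18 (p18) of pregnancy the groups were Ezh1 het Ezh2 KO (genotype label E1+/-;E2f/f;control), Ezh2 KO (Ezh2f/f;control), Ezh1 KO (E1-/-) and control (MMTV-Cre), with 3 libraries each except the p18 Ezh1 KO group, which had 2. Virgin glands at 12 weeks, from Ezh2 KO and control mice, gave 4 groups of 2 libraries, with and without prolactin (PRL). In these mice the left 4th fat pad was taken first, with its lymph node removed, and prolactin was then injected at 5 µg per g body weight. The right 4th fat pad of the same mouse was taken 2 h later, so side, anaesthesia, surgery and time cannot be told apart from the hormone.

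By their label the controls carried the Cre transgene too, and the floxed Ezh2 alleles were deleted by MMTV-Cre line A, whose promoter is active in mammary epithelium and is also known to act in salivary gland and some blood cells, while Ezh1 was absent from every cell of the Ezh1 KO mice. Any deletion in macrophages themselves cannot be read from whole tissue. EZH2 and EZH1 are alternative catalytic subunits of the PRC2 complex, which places the repressive H3K27 methyl mark on chromatin. The table holds 1 pooled value per group and no value per library. Spread between libraries and depth are therefore unknown, no replicate check exists for any difference, and no p-value is given. Differences are in log2(FPKM + 1), first-named group minus second, which makes those of low genes too small. A difference of at least 1 in size is called past the threshold, as a description and not a test.

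Macrophages are tissue phagocytes that arise from embryonic precursors or from blood monocytes and depend on signalling through the receptor CSF1R. In the mammary gland they lie along ducts and alveoli and within the fat pad, and in mice that lack the ligand CSF1 the ducts branch poorly and lactation fails. Resident macrophages of connective tissue and fat are known for scavenger receptors such as MRC1 and CD163, whereas C1q and lysozyme are secreted products of many macrophages.

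Other features of the groups bear on these values. Summed FPKM differed between groups, at 581531 to 1151971, and milk protein genes made up 29.9% to 47.0% of the sum at p18, 1.66% to 14.7% at p13 and at most 0.238% in virgin glands. The 10 macrophage genes together made up 0.0400% to 0.177% of the sum. Ezh1 stood at 1.06 FPKM in the p13 Ezh1 KO group, against 14.7 in the p13 control, and at 0.627 in the p18 Ezh1 KO group, against 7.37 in the p18 control. Ezh2 itself stood at 9.54 FPKM in p13 Ezh1 het Ezh2 KO and 13.7 in p13 Ezh2 KO, against 12.9 in p13 control, and at 6.24 and 6.41 FPKM in the same p18 genotypes, against 10.0 in p18 control. In virgin glands it stood at 4.64 FPKM in Ezh2 KO, against 6.74 in control, with prolactin and at 5.55, against 4.98, without. The transcript level was thus lower in Ezh2 KO than in control in some of these pairs and higher in others, and the sources used here do not say which exons the floxed alleles lose. The gland itself was recognisable from its markers, with a summed level of 12 luminal epithelial genes of 884 to 2686 FPKM.

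Lyz2 and C1qa were the most abundant of the macrophage genes and Marco the scarcest in most groups. Lyz2 ranged from 213 to 614 FPKM, which put it above 98.2% of all genes in every group. C1qa ranged from 126 to 272 FPKM and lay above 96.9% of all genes. Itgam, at 1.45 to 9.47 FPKM, and Marco, at 0.0888 to 11.9 FPKM, were low, and Marco had the widest range of the 10. In bulk tissue a lower level can come from fewer macrophages or from less RNA per cell, and these cannot be told apart.

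**Figure D1:**
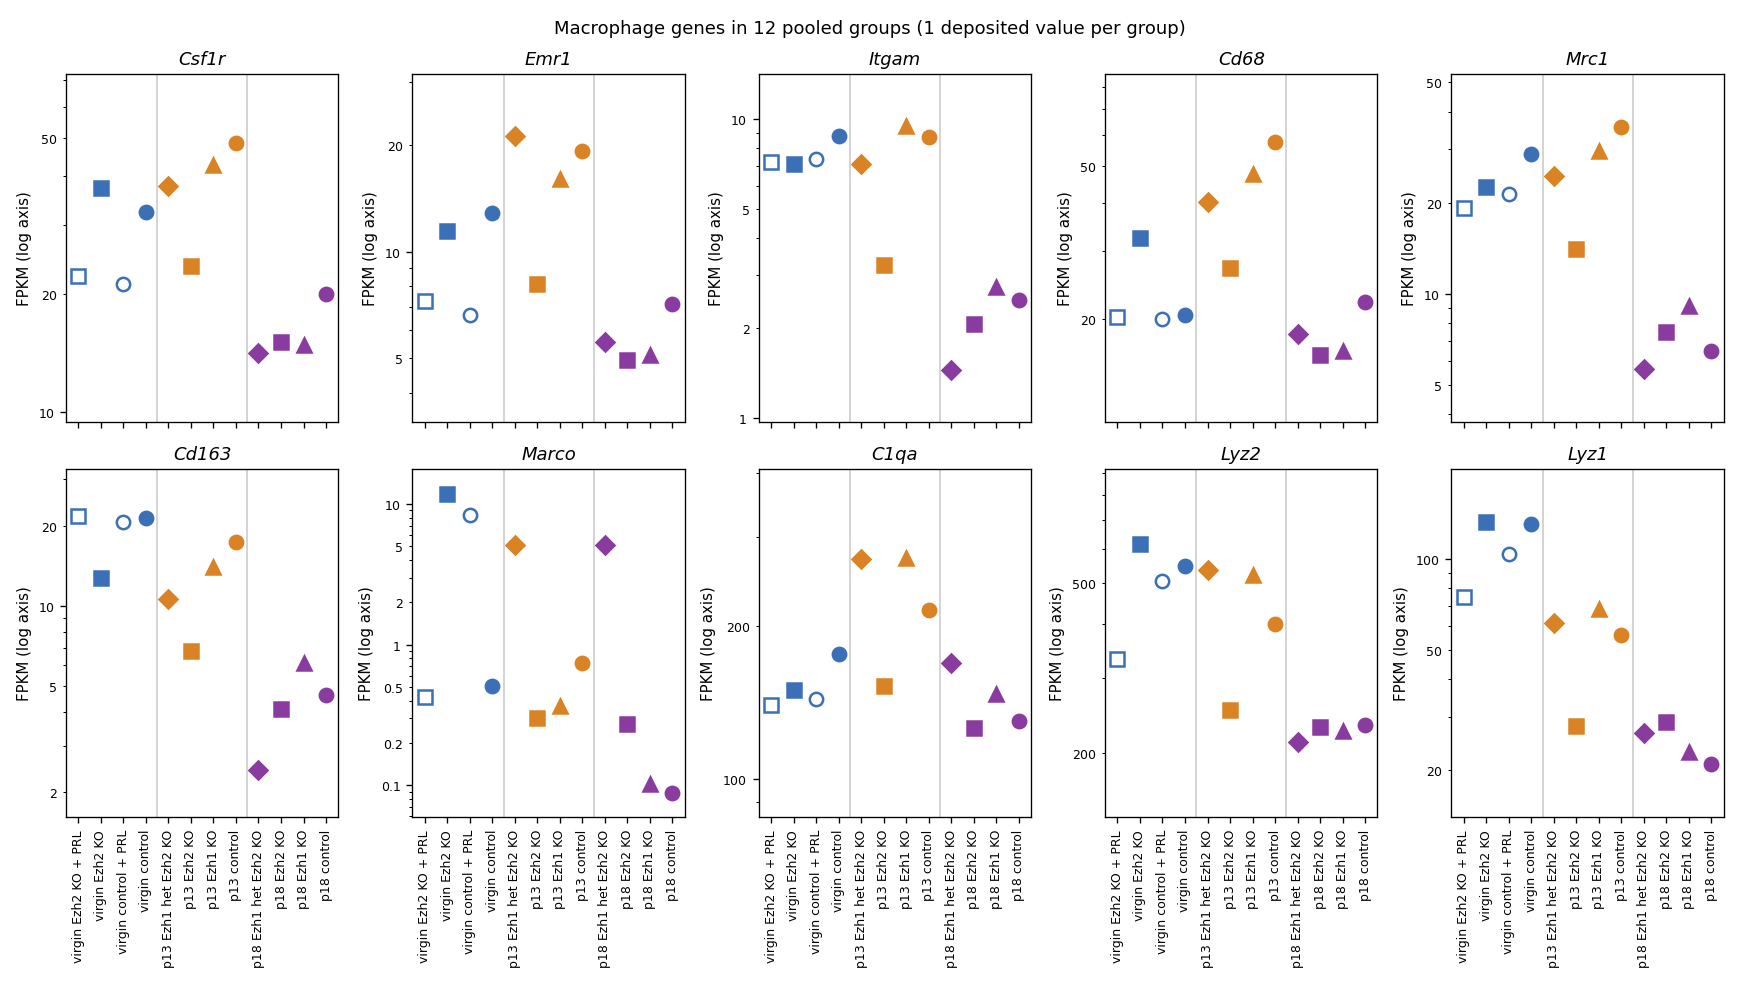
FPKM (log axis, scaled for each gene) of the 10 macrophage genes in each of the 12 groups, 1 pooled value per point. Colours mark virgin, p13 and p18 glands, squares Ezh2 KO, triangles Ezh1 KO, diamonds Ezh1 het Ezh2 KO and circles control, and open symbols prolactin. In all 10 panels the p13 Ezh2 KO square lies below the other p13 points, and in the Marco panel 4 points stand apart at 5.09 to 11.9 FPKM.

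Csf1r encodes the CSF1 receptor on which the lineage depends. In virgin glands it stood at 22.2 FPKM in Ezh2 KO with prolactin, 37.2 in Ezh2 KO, 21.1 in control with prolactin and 32.4 in control. Its p13 values were 37.7 FPKM in Ezh1 het Ezh2 KO, 23.5 in Ezh2 KO, 42.5 in Ezh1 KO and 48.5 in control, and its p18 values were 14.1, 15.0, 14.7 and 19.9 FPKM in the same order of genotypes. The p13 control was thus the highest of the 12 groups and all 4 p18 groups were the lowest.

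Emr1 encodes F4/80, the surface protein most used to mark mouse macrophages. It stood at 7.27 FPKM in virgin Ezh2 KO with prolactin, 11.4 in virgin Ezh2 KO, 6.62 in virgin control with prolactin and 12.8 in virgin control. At p13 the values were 21.2 FPKM in Ezh1 het Ezh2 KO, 8.10 in Ezh2 KO, 16.1 in Ezh1 KO and 19.2 in control, and at p18 they were 5.56, 4.95, 5.12 and 7.13 FPKM in that order. The 3 highest Emr1 values were those of the p13 groups other than Ezh2 KO.

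Itgam encodes CD11b, an integrin subunit of myeloid cells that is also carried by neutrophils. It stood at 7.17 FPKM in virgin Ezh2 KO with prolactin, 7.07 in virgin Ezh2 KO, 7.34 in virgin control with prolactin and 8.78 in virgin control. At p13 it stood at 7.09 FPKM in Ezh1 het Ezh2 KO, 3.25 in Ezh2 KO, 9.47 in Ezh1 KO and 8.71 in control, and at p18 at 1.45, 2.06, 2.75 and 2.47 FPKM. The virgin groups spanned a narrower range for Itgam than the p13 groups did.

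Cd68 encodes a glycoprotein of macrophage lysosomes. It stood at 20.2 FPKM in virgin Ezh2 KO with prolactin, 32.3 in virgin Ezh2 KO, 19.9 in virgin control with prolactin and 20.5 in virgin control. On day 13 it stood at 40.3 FPKM in Ezh1 het Ezh2 KO, 27.1 in Ezh2 KO, 47.5 in Ezh1 KO and 57.8 in control, and at p18 at 18.2, 16.1, 16.5 and 22.1 FPKM. Its virgin control value lay within the range of the p18 values and below all p13 values.

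In both scavenger receptors all 4 p18 values lay below all others. Mrc1, which encodes the mannose receptor CD206, stood at 19.2 to 28.9 FPKM in virgin groups. At p13 it stood at 24.5 FPKM in Ezh1 het Ezh2 KO, 14.1 in Ezh2 KO, 29.6 in Ezh1 KO and 35.5 in control, and at p18 at 5.63, 7.49, 9.10 and 6.47 FPKM. Cd163, which encodes the receptor that clears haemoglobin bound to haptoglobin, stood at 21.9 FPKM in virgin Ezh2 KO with prolactin, 12.8 in virgin Ezh2 KO, 20.8 in virgin control with prolactin and 21.4 in virgin control. Of the 12 groups, 3 of the 4 virgin ones had the highest Cd163 values. At p13 Cd163 stood at 10.7 FPKM in Ezh1 het Ezh2 KO, 6.78 in Ezh2 KO, 14.1 in Ezh1 KO and 17.4 in control, and at p18 at 2.42, 4.10, 6.14 and 4.65 FPKM.

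C1qa encodes a chain of C1q, the recognition protein of the classical complement pathway, which is made largely by macrophages. It stood at 140 FPKM in virgin Ezh2 KO with prolactin, 150 in virgin Ezh2 KO, 143 in virgin control with prolactin and 176 in virgin control. Its p13 values were 271 FPKM in Ezh1 het Ezh2 KO, 153 in Ezh2 KO, 272 in Ezh1 KO and 215 in control, and its p18 values were 169, 126, 147 and 130 FPKM. The p18 values of C1qa overlapped its virgin values, unlike those of Csf1r. The other C1q chains kept a near fixed ratio to it, with C1qb at 0.715 to 0.945 times and C1qc at 0.646 to 0.771 times C1qa over the 12 groups.

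Lyz1 and Lyz2 are neighbouring mouse genes for lysozyme, which cleaves bacterial cell walls. In mice Lyz2 is known as the lysozyme gene of macrophages and neutrophils, and Lyz1 as that of intestinal Paneth cells. Their promoters are printed to show how alike the pair is. Capitals mark the positions at which they differ within the last 130 bases before the RefSeq start (GRCm38.p6, minus strand, chr10:117292869-117292998 for Lyz1 and chr10:117282273-117282402 for Lyz2).
Lyz1: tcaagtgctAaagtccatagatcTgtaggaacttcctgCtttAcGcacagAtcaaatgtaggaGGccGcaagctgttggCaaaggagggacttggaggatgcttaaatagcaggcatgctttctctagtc
Lyz2: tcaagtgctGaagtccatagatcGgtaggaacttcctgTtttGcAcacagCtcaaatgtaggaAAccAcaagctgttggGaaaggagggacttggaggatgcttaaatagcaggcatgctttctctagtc
The windows were the same at 120 positions and differed at 10 (92.3% identity), and the stretch nearest the start held no difference. The genes are close copies, and the sources used here do not say how reads that match both were assigned, so the split between Lyz1 and Lyz2 is uncertain and their sum is firmer than either.

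Lyz2 stood at 332 FPKM in virgin Ezh2 KO with prolactin, 614 in virgin Ezh2 KO, 504 in virgin control with prolactin and 548 in virgin control. At p13 it stood at 534 FPKM in Ezh1 het Ezh2 KO, 253 in Ezh2 KO, 521 in Ezh1 KO and 400 in control, and at p18 it lay between 213 and 233 FPKM in the 4 groups. Lyz1 stood at 75.0 to 133 FPKM in virgin groups, at 61.4 in p13 Ezh1 het Ezh2 KO, 27.9 in p13 Ezh2 KO, 68.2 in p13 Ezh1 KO and 56.1 in p13 control, and at 20.8 to 28.7 at p18. Within each group Lyz1 was 0.205 to 0.238 times Lyz2 in virgin glands, 0.111 to 0.140 times at p13 and 0.0896 to 0.125 times at p18. The 4 virgin ratios lay above all 8 pregnant ones. The 4 Paneth cell genes that the table holds summed to at most 0.562 FPKM in any group, with Defa24 and Defa17 listed at 0 in all 12, so the defining transcripts of that cell type were at or near 0.

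The deletion of Ezh2 was compared with control at p13, a stage at which alveoli form. All 10 macrophage genes were lower in the p13 Ezh2 KO group than in the p13 control, and they were lower under every processing setting tried. Of the 10, 6 were past the threshold, against 6.59% of all genes kept, and the median of the 10 differences was -1.04, against 0.01 over all genes kept. Mrc1 was 2.52-fold lower (log2 difference -1.28), Cd163 2.56-fold lower (-1.24), Itgam 2.68-fold lower (-1.19), Emr1 2.38-fold lower (-1.15), Cd68 2.14-fold lower (-1.07) and Csf1r 2.07-fold lower (-1.02). These 6 encode receptors and other membrane proteins. Under the threshold were the secreted products, with Lyz1 at -0.98 (2.01-fold lower and close to Csf1r), Lyz2 at -0.66 and C1qa at -0.49. The receptor gene Marco was also under it at -0.41 (2.44-fold lower), with less than 1 FPKM in both groups. This division by kind of protein did not hold with p13 Ezh1 KO as the group compared against. Lyz1 and Lyz2 were then past the threshold, and Csf1r, Cd68, Emr1 and Cd163 under it.

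The 6 differences sat close to the threshold. The count past it was 1 (Mrc1) with a pseudocount of 5 and 4 after scaling to a common sum without milk proteins. It was 7 with a common sum and 8 with a pseudocount of 0.1. The adipocyte list, which marks the fat that surrounds the ducts, moved in the same direction. Its 13 genes summed to 13464 FPKM in p13 Ezh2 KO, against 33787 in p13 control, and 10 of 13 were lower past the threshold. None of its 13 genes was listed at 0, and the lowest, Slc2a4, stood at 30.2 FPKM in p13 Ezh2 KO, against 46.8 in p13 control. Skeletal muscle genes summed to 47.1 FPKM in p13 Ezh2 KO, against 10286 in p13 control, so the p13 control also differed by its muscle transcripts. Fibroblast genes summed to 1762 FPKM, against 2488, with 0 of 7 past the threshold. Erythroid genes summed to 346 FPKM in p13 Ezh2 KO, against 2063 in p13 control. In the mast cell and eosinophil list, 3 of the 5 genes that passed the filter were lower past the threshold (Cma1 -1.38, Mcpt4 -1.37 and Cpa3 -1.31). The rest were higher, Kit at 67.8 FPKM in p13 Ezh2 KO, against 44.0 in p13 control, and Prg2 at 2.32, against 1.18. The luminal epithelial sum went the other way, at 2686 FPKM in p13 Ezh2 KO, against 1563 in p13 control. Within that list Esr1 was lower, at 5.95 FPKM, against 18.1, as was Pgr, at 2.16, against 2.48. Its other genes were higher. The basal epithelial sum was 1705 FPKM, against 1547, with genes in both directions. Milk proteins made up 14.7% of the summed FPKM, against 1.66%. The part of these cell types in the lower macrophage values was not tested, and the muscle sum was 2544 FPKM in p13 Ezh1 KO. With p13 Ezh1 KO as the group compared against, 4 of 10 genes were lower past the threshold, namely Mrc1, Itgam, Lyz1 and Lyz2. Csf1r, Cd68, Emr1 and Cd163, which were past it against p13 control, were then under it.

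**Figure D2:**
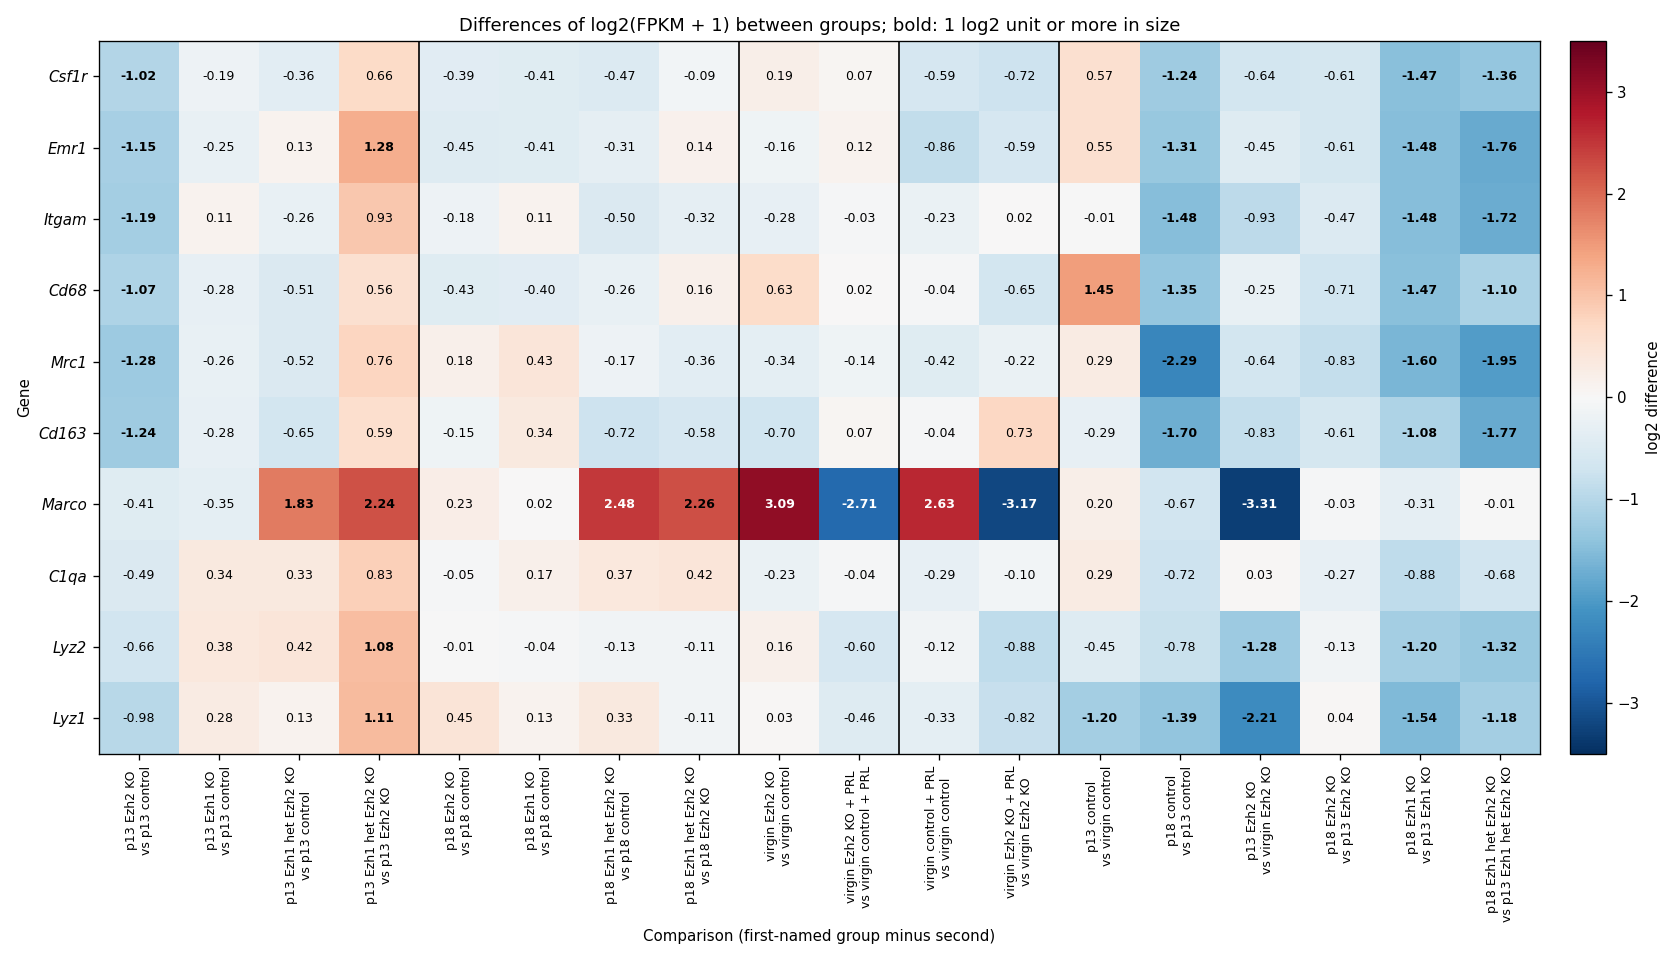
Differences of log2(FPKM + 1) for the 10 macrophage genes (rows) in 18 comparisons (columns, first-named group minus second), with the value in each cell, red for higher, blue for lower and bold at 1 or more in size. The p13 Ezh2 KO column holds 10 negative values, the columns of p18 against p13 in control, Ezh1 KO and Ezh1 het Ezh2 KO hold 7, 8 and 8 bold negative ones, and the Marco row holds bold values of both signs.

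Fewer of the 10 genes were past the threshold in the other genotypes at p13. In the p13 Ezh1 KO group 0 of 10 genes were past the threshold relative to p13 control, against 4.38% of all genes kept in either direction, and the median difference was -0.22. Lyz2 (0.38) had the largest difference there, with Marco at -0.35 and C1qa at 0.34. In the p13 Ezh1 het Ezh2 KO group Marco alone was past it, 7.00-fold higher (1.83) than in p13 control, against 3.12% of all genes kept that were higher. The other 9 genes lay between -0.65 (Cd163) and 0.42 (Lyz2). The 3 comparisons share the p13 control, so their values are not independent of each other.

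The p13 Ezh1 het Ezh2 KO group, which carries the floxed Ezh2 alleles too, was also set directly against p13 Ezh2 KO. All 10 genes were higher in Ezh1 het Ezh2 KO, under every setting tried, with a median difference of 0.88 against 0.00 over all genes kept. Of these, 4 were past the threshold, against 2.80% of all genes kept that were higher. Marco was 17.1-fold higher (2.24), Emr1 2.61-fold higher (1.28), Lyz1 2.20-fold higher (1.11) and Lyz2 2.11-fold higher (1.08). C1qa, at 0.83, and Itgam, at 0.93, were just under the threshold. The adipocyte sum was 24156 FPKM in the Ezh1 het Ezh2 KO group, against 13464 in Ezh2 KO, and the summed level of 14 B and T lymphocyte genes was 120 FPKM, against 28.2.

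At p18, when secretory differentiation is under way, the genotypes lay closer together. Against p18 control, 0 of 10 genes were past the threshold in p18 Ezh2 KO (background 4.53% in either direction, median difference -0.10) and 0 of 10 in p18 Ezh1 KO (background 2.60%, median 0.06). Emr1 (-0.45), Cd68 (-0.43) and Csf1r (-0.39) were the lowest in p18 Ezh2 KO, and in p18 Ezh1 KO the same 3 genes lay at -0.41, -0.40 and -0.41. For 4 of the 10 genes in each of these comparisons the sign depended on the scaling. Against p18 control, Marco was 57.3-fold higher (2.48) in p18 Ezh1 het Ezh2 KO, where 1.23% of all genes kept were higher past the threshold, and Cd163 was 1.92-fold lower (-0.72, or -1.03 with a common sum without milk proteins). Against p18 Ezh2 KO, Marco was 18.6-fold higher (2.26) in the same group, with 1.16% of all genes kept higher. The p18 control value of Marco was 0.0888 FPKM, so those folds rest on a level close to 0. Whether the Ezh2 KO difference itself changed between p13 and p18 could not be tested with 1 value per group, and the p18 difference minus the p13 difference ran from 0.45 (C1qa) to 1.46 (Mrc1).

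The stages of pregnancy were compared within a genotype. In control glands 7 of 10 genes were lower past the threshold at p18 than at p13, where 19.1% of all genes kept were lower past it. The median difference was -1.33, against -0.46 over all genes kept, so the 10 genes lay 0.88 below the general shift. Mrc1 was 5.49-fold lower (-2.29), Cd163 3.73-fold lower (-1.70), Itgam 3.52-fold lower (-1.48), Lyz1 2.69-fold lower (-1.39), Cd68 2.62-fold lower (-1.35), Emr1 2.70-fold lower (-1.31) and Csf1r 2.43-fold lower (-1.24). Lyz2 (-0.78), C1qa (-0.72) and Marco (-0.67) were under the threshold. All 10 were lower under every setting, but with groups scaled to a common upper quartile, which brought the median of all genes to -0.04, only Mrc1, Cd163 and Itgam were past the threshold. Milk protein genes took 47.0% of the summed FPKM in p18 control, against 1.66% in p13 control, and adipocyte genes summed to 7129 FPKM, against 33787. Skeletal muscle genes summed to 71.0 FPKM in p18 control, against 10286 in p13 control, and erythroid genes to 54.3, against 2063. The part of these lists in the lower values was not tested.

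The other genotypes gave the same direction over this interval. At p18 against p13, 8 of 10 genes were lower past the threshold in Ezh1 KO (12.1% of all genes kept were lower past it, median of the 10 -1.47) and 8 of 10 in Ezh1 het Ezh2 KO (16.0%, median -1.34). In both, C1qa (-0.88 and -0.68) and Marco (-0.31 and -0.01) were the exceptions. In Ezh2 KO 0 of 10 were past it (5.20% of all genes kept in either direction), with a median of -0.54 against -0.45 over all genes kept, and the p13 Ezh2 KO values were already the lowest of that stage. For 4 of the 10 genes in that comparison the sign depended on the setting.

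Between virgin control and p13 control the genes divided. Cd68 was 2.82-fold higher (1.45) at p13, against 9.12% of all genes kept that were higher past the threshold, and Lyz1 was 2.32-fold lower (-1.20), against 2.76% that were lower. Csf1r (0.57) and Emr1 (0.55) were higher under the threshold, and Lyz2 (-0.45) and Cd163 (-0.29) lower. Skeletal muscle genes summed to 10286 FPKM in p13 control, against 83.4 in virgin control, and their part in these values was not tested. In Ezh2 KO glands, p13 against virgin, 3 genes were lower past the threshold, where 9.11% of all genes kept were lower past it. Those were Marco (-3.31), Lyz1 (-2.21) and Lyz2 (-1.28), and the median of the 10 was -0.73, against 0.12 over all genes kept. The 14 B and T lymphocyte genes summed to 28.2 FPKM in p13 Ezh2 KO, against 388 in virgin Ezh2 KO. Pan-leukocyte genes summed to 174 FPKM, against 638. The part of these genes in the lower values was not tested.

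Ratios within a group do not depend on how the groups were scaled. Mrc1 was 0.607 to 1.01 times Csf1r in virgin glands, 0.600 to 0.732 times at p13 and 0.325 to 0.617 times at p18. Cd163 was 0.344 to 0.985 times Csf1r in virgin glands, 0.283 to 0.358 times at p13 and 0.172 to 0.416 times at p18. C1qa moved the other way, at 4.02 to 6.78 times Csf1r in virgin glands, 4.44 to 7.19 times at p13 and 6.53 to 12.0 times at p18. In p13 Ezh2 KO, Mrc1 over Csf1r was 0.600, against 0.732 in p13 control, and C1qa over Csf1r was 6.50, against 4.44. In p18 control Mrc1 over Csf1r was 0.325, below all 8 virgin and p13 ratios.

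**Figure D3:**
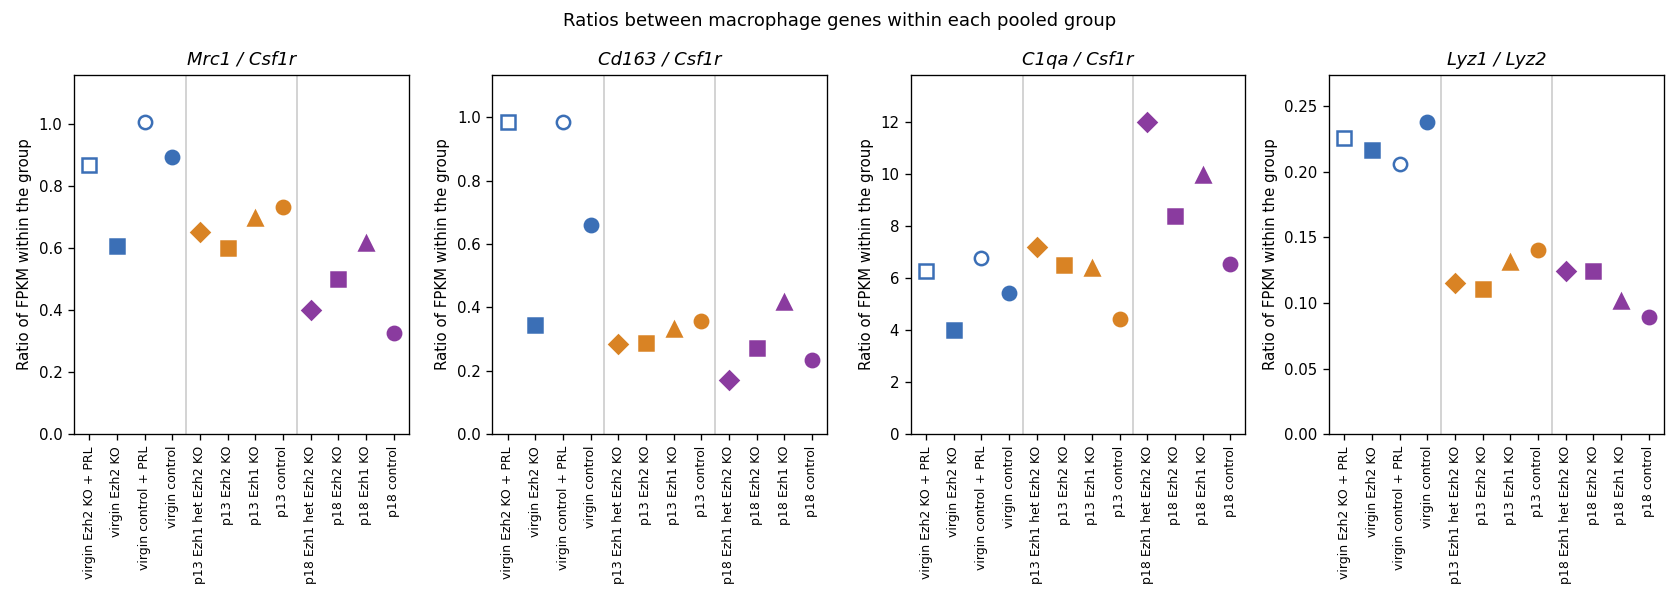
Ratio of FPKM of Mrc1, Cd163 and C1qa to Csf1r, and of Lyz1 to Lyz2, within each of the 12 groups (vertical axes from 0, no unit; symbols and colours as for the FPKM of the 10 genes, open for prolactin). Lyz1 over Lyz2 is 0.205 or more in the 4 virgin groups and 0.140 or less in the 8 pregnant ones, and C1qa over Csf1r is highest, at 12.0, in p18 Ezh1 het Ezh2 KO.

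Prolactin was injected into virgin mice to follow the acute response. In control glands 9 of 10 genes were lower after prolactin, all under the threshold, and Marco was 16.3-fold higher (2.63), where 4.76% of all genes kept were higher past it. Emr1 (-0.86) and Csf1r (-0.59) had the largest lower values, and the median of the 10 was -0.26, against 0.00 over all genes kept. With groups scaled to a common sum, Emr1 was past the threshold too (-1.04). In Ezh2 KO glands Marco was 27.8-fold lower (-3.17) after prolactin, where 4.08% of all genes kept were lower past the threshold. Lyz2 (-0.88), Lyz1 (-0.82), Csf1r (-0.72), Cd68 (-0.65) and Emr1 (-0.59) were lower under it and Cd163 was higher (0.73), with a median of -0.62. Csf1r and Emr1 had lower values after prolactin in both genotypes. Under the same scaling Lyz2 (-1.09) and Lyz1 (-1.02) were past the threshold with Marco in Ezh2 KO.

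Untreated virgin glands differed between genotypes in Marco, which was 23.2-fold higher (3.09) in Ezh2 KO than in control, where 3.35% of all genes kept were higher past the threshold. With prolactin it was 19.5-fold lower (-2.71) in Ezh2 KO than in control, where 2.71% were lower past it. The other 9 genes lay between -0.70 (Cd163) and 0.63 (Cd68) in the untreated comparison and between -0.60 (Lyz2) and 0.12 (Emr1) in the prolactin comparison.

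Marco encodes a class A scavenger receptor that in mice is known from macrophages of the splenic marginal zone, lymph node and lung. It stood at 0.427 FPKM in virgin Ezh2 KO with prolactin, 11.9 in virgin Ezh2 KO, 8.32 in virgin control with prolactin and 0.511 in virgin control. On day 13 it stood at 5.15 FPKM in Ezh1 het Ezh2 KO, 0.302 in Ezh2 KO, 0.366 in Ezh1 KO and 0.736 in control, and at p18 at 5.09, 0.274, 0.102 and 0.0888 FPKM. The values fall into 4 groups at 5.09 or more and 8 groups at 0.736 or less, with none between. With a pseudocount of 5 the Marco differences between genotypes at p13 and at p18 were all under the threshold.

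The same 4 groups had the highest levels of lymphocyte and lymph node transcripts. The 14 B and T lymphocyte genes summed to 388 FPKM in virgin Ezh2 KO, 320 in virgin control with prolactin, 120 in p13 Ezh1 het Ezh2 KO and 181 in p18 Ezh1 het Ezh2 KO, against 18.3 to 39.6 FPKM in the other 8 groups. The B cell gene Cd79a stood at 60.9, 49.7, 10.2 and 8.70 FPKM in those 4 groups, against 0.319 to 1.63 in the other 8. The 10 lymph node genes, of which Ccl21a and Ccl19 were listed at 0 in all 12 groups, summed to 140, 141, 33.1 and 24.4 FPKM in the 4 groups, against 9.05 to 15.7 in the other 8. In the virgin mice the 2 high groups are untreated left glands of Ezh2 KO and prolactin-treated right glands of control. Neither genotype nor prolactin alone therefore separates high from low virgin groups. In pregnancy the 2 high groups are those of Ezh1 het Ezh2 KO, at p13 and p18. There genotype cannot be told apart from the lymphocyte transcripts. Whether lymphoid tissue in the dissected gland accounts for Marco was not tested, and in each comparison in which Marco was past the threshold the lymphocyte sum differed in the same direction. Under the threshold this did not always hold, as in p13 Ezh2 KO, where Marco was at -0.41 and the lymphocyte sum was 28.2 FPKM, against 18.3 in p13 control.

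**Figure D4:**
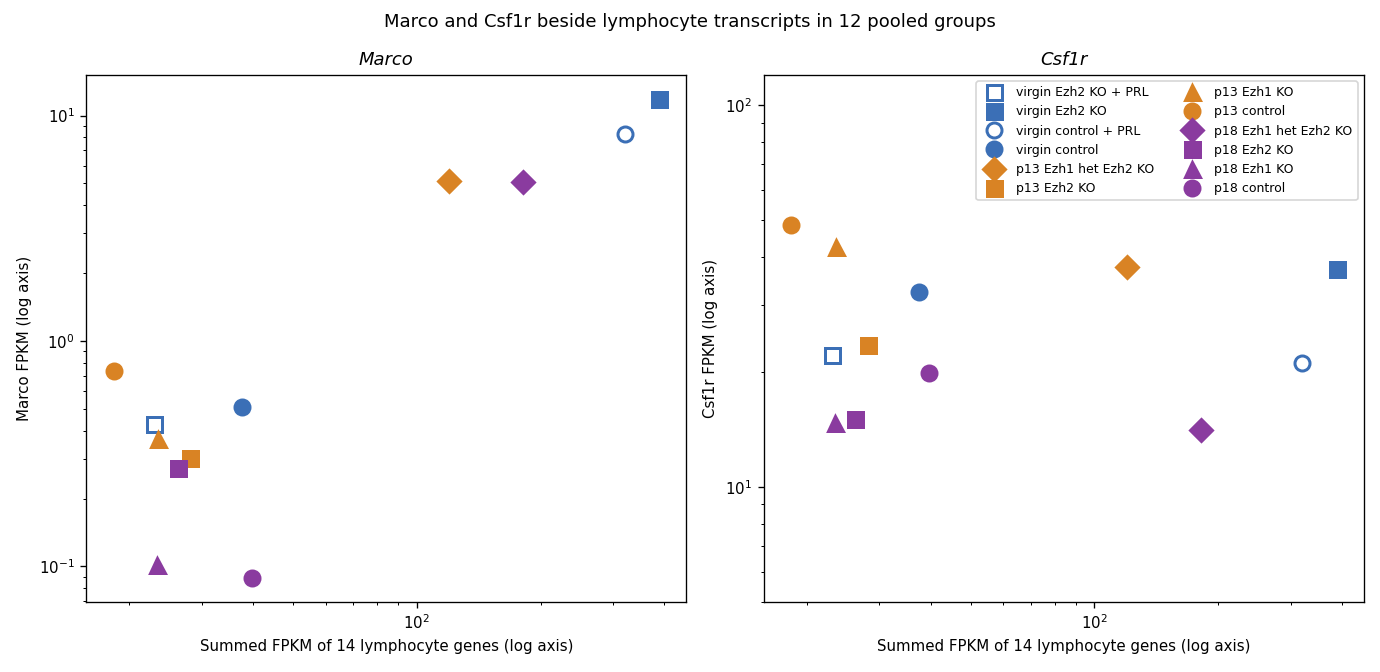
FPKM of Marco (left) and Csf1r (right) against the summed FPKM of 14 B and T lymphocyte genes, both axes log, 1 point per group (12 points, symbols in the legend, open for prolactin). The 4 groups with lymphocyte sums of 120 FPKM or more hold Marco at 5.09 FPKM or more, while Csf1r in these 4 groups spans 14.1 to 37.7 FPKM and overlaps the other 8.

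The remaining genes did not follow that division. Over the 12 groups, Pearson correlations of log2(FPKM + 1) had a median of 0.79 for the 36 pairs without Marco (0.28 to 0.97) and 0.15 for the 9 pairs with Marco (0.11 to 0.49). The highest was 0.97, between Mrc1 and Itgam. These correlations describe 12 pooled values that share the stages of pregnancy and the scaling of FPKM. Of the 11111 genes that reached 5 FPKM in any group, those most like Marco were Cd79a (0.98), the lymphotoxin gene Ltb (0.97) and the chemokine gene Ccl22 (0.96). The mean profile of the 10 genes includes Marco and was highest in virgin Ezh2 KO, whereas without Marco it was highest in p13 control. The genes most like the mean with Marco were Cd84 (0.99), Ces2g (0.99), Pdlim2 (0.97), Slc15a4 (0.97) and Pip4k2a (0.97). For C1qa they were C1qc (0.98), C1qb (0.95) and Fcer1g (0.92), the last being the gene of the Fc receptor gamma chain, and for Emr1 the complement receptor gene C3ar1 (0.98) came first. For Cd163 they were Procr, Fcgr2b and Klf4, all at 0.98.

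Other macrophage genes were read from lists of ligands, transcription factors, receptors and products. In p13 Ezh2 KO against p13 control, the resident scavenger list had 7 of 12 genes lower and 0 higher past the threshold (median -1.08, against 0.01 over all genes kept). In that comparison 6.59% of all genes kept were lower past the threshold, and the share that were higher was not counted. Lyve1, a hyaluronan receptor shared with lymphatic endothelium, stood at 5.73 FPKM in p13 Ezh2 KO, against 27.6 in p13 control. Folr2, a folate receptor of resident macrophages, stood at 16.0 FPKM, against 49.6. The alternative activation list had 3 of 6 lower (median -0.99), led by Retnla at 266 FPKM in p13 Ezh2 KO, against 1277 in p13 control, and Il4ra at 13.7, against 47.1. Retnla is also made by adipose tissue, whose own markers were lower. The lipid-associated list had 5 of 10 lower and 2 higher, with Gpnmb at 1.06 FPKM, against 10.1, and Spp1, which mammary epithelium also makes, at 346, against 35.5.

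The growth factor axis and the chemokine genes were read in the same comparison. There 0 of 4 genes of the CSF1 axis were past the threshold (median -0.33), and Csf2rb, the shared beta chain of the receptors for GM-CSF, IL-3 and IL-5, had the largest difference (-0.53). Csf1, the ligand of the CSF1 receptor, stood at 20.2 FPKM in p13 Ezh2 KO, against 24.6 in p13 control, and Il34, its other ligand, at 11.4, against 15.2. Monocyte recruitment genes had 2 of 11 higher and 2 lower (median 0.39), with the monocyte chemokine gene Ccl7 at 3.93 FPKM, against 18.7, and the monocyte surface gene Ly6c2 at 5.47, against 2.03. Classical activation genes had 1 of 8 higher and 0 lower, Cxcl10, an interferon-induced chemokine gene, at 29.4 FPKM, against 5.54. The MHC class II list had 0 of 7 past the threshold (median -0.48) and the pan-leukocyte list 1 of 10 lower (median -0.26), so the general leukocyte genes lay nearer to 0 than the 10 macrophage genes. Other lists of macrophage genes also lay nearer to 0 than the 10. The lysosome list had 1 of 12 lower (median -0.48) and the phagocyte surface list 1 of 15 higher and 2 lower (median -0.23). The list of C1q chains and complement receptors had 1 of 5 lower (median -0.68).

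**Figure D5:**
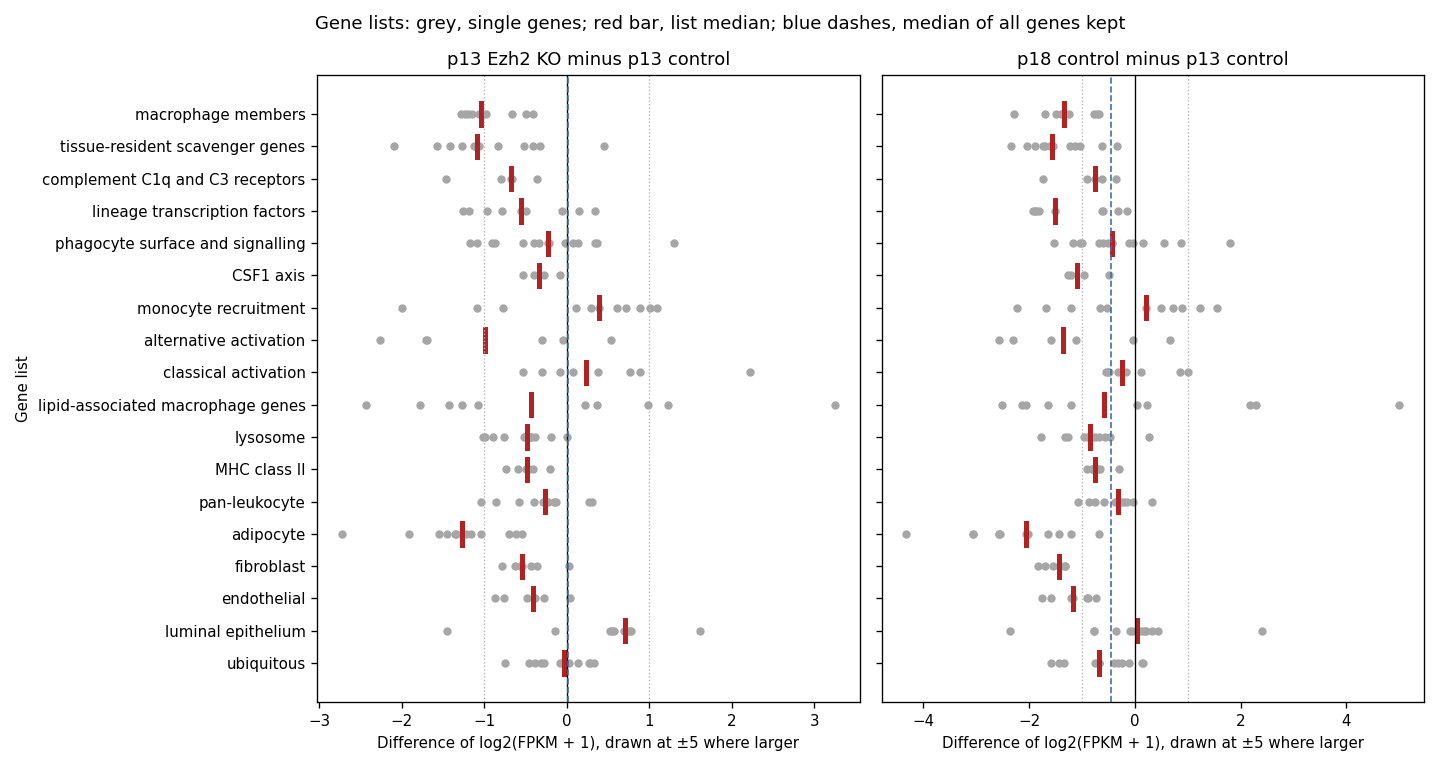
Differences of log2(FPKM + 1) for 18 gene lists, p13 Ezh2 KO minus p13 control (left) and p18 control minus p13 control (right). Grey points are single genes (drawn at 5 where larger), red bars list medians, blue dashes the median of all genes kept and dotted lines the threshold of 1. In the left panel the macrophage (-1.04), resident scavenger (-1.08) and adipocyte (-1.26) medians lie left of -1. The pan-leukocyte median is -0.26, with the phagocyte surface median close to it.

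The same lists were read over the stages in control. At p18 against p13, 10 of 12 resident scavenger genes were lower past the threshold (median -1.57, against -0.46 over all genes kept), with F13a1, a transglutaminase gene of resident macrophages, at 8.78 FPKM in p18 control, against 48.5 in p13 control. Csf1, at 10.1 FPKM against 24.6, and Il34, at 5.75 against 15.2, were 2 of 4 genes of the CSF1 axis lower past the threshold. The pan-leukocyte list had 1 of 10 lower (median -0.32) and MHC class II 0 of 7 (median -0.75). Spp1 stood at 5072 FPKM in p18 control, against 35.5 in p13 control. Fibroblast genes were lower past the threshold in 7 of 7 and adipocyte genes in 12 of 13, so stromal genes of other kinds were lower at p18 too. The part of these cell types in the values was not tested.

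The lists were also read in the prolactin comparisons. In control glands with prolactin 7 of 11 monocyte recruitment genes were higher and 1 lower past the threshold (median 1.33), where 4.76% of all genes kept were higher past it. Ccl5, a chemokine gene that T cells also express, led them at 133 FPKM with prolactin, against 17.3 without. The monocyte chemokine gene Ccl7 stood at 33.8 FPKM with prolactin, against 4.32 without, and Ccl2, another, at 18.3, against 5.36. Their receptor gene Ccr2 was the lower one, at 7.21 FPKM with prolactin, against 17.6 without. Resident scavenger genes had 0 of 12 higher and 4 lower, led by Cd209f at 8.72 FPKM, against 50.0, and Cd209g at 1.60, against 11.9. The share of all genes kept that were lower past the threshold was not counted for control glands. In Ezh2 KO glands 4 of 11 monocyte recruitment genes were lower and 0 higher, where 4.08% of all genes kept were lower past the threshold. Ccl5 stood at 12.0 FPKM with prolactin, against 277 without, and Ly6c2 at 3.65, against 32.2, while Ccl7, under the threshold, stood at 7.98, against 4.40. Ccl5 and Ly6c2 went in the direction of the lymphocyte sums, which were 23.0 FPKM with prolactin, against 388 without, in Ezh2 KO and 320, against 37.5, in control. Their part in the chemokine values was not tested. Cd209f was lower past the threshold in both genotypes, at 13.0 FPKM with prolactin, against 33.3 without, in Ezh2 KO. Neutrophil genes summed to 470 FPKM in Ezh2 KO with prolactin, against 64.9 without, and to 279 in control with prolactin, against 64.5 without. Itgam, which neutrophils share, stayed between 7.07 and 8.78 FPKM in these 4 groups, and neutrophils are also a known source of Lyz2.

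PU.1, encoded by Sfpi1 (now Spi1), is the transcription factor that macrophage development requires, and its sites have the core GAGGAA. Sfpi1 stood at 17.3 FPKM in p13 Ezh1 het Ezh2 KO, 8.64 in p13 Ezh2 KO, 14.7 in p13 Ezh1 KO and 13.2 in p13 control, and at 6.90 to 8.32 FPKM at p18. The 9 lineage transcription factors had 0 higher and 2 lower past the threshold in p13 Ezh2 KO against p13 control (median -0.56), Klf4 at 10.0 FPKM, against 25.3, and Nr1h3, also an adipocyte gene, at 16.2, against 38.3. Since the values of most of the 10 genes went together over the groups, their promoters were searched for that core. The RefSeq promoter table (GRCm38.p6) held 7 of the 10 genes, namely Cd68, Mrc1, Cd163, Itgam, Lyz1, Lyz2 and Marco. On either strand of the 250 bases before the start, GAGGAA (or TTCCTC) was present in 4 of the 7, with 3 matches in Mrc1, 2 in Itgam and 1 each in Cd68 and Marco, against 23.3% of 32851 promoters of the same length. The stretches around 1 match region in each are printed because they are the letters behind that count, with the core in capitals (Mrc1 chr2:14229207-14229266 plus strand, Itgam chr7:128062529-128062588 plus strand, Cd68 chr11:69666363-69666420 minus strand, Marco chr1:120505138-120505197 minus strand).
Mrc1: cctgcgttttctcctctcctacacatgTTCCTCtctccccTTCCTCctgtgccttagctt
Itgam: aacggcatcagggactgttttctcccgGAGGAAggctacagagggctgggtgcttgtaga
Cd68: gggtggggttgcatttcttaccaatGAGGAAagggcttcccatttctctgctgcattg
Marco: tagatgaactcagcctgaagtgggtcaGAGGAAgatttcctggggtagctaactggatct
A match describes the letters of this window and not binding. Marco holds a match too although its values did not follow those of Mrc1, Itgam and Cd68.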

How the data were processed

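RNA was sequenced from whole mammary tissue in 31 libraries, grouped by their labels. The authors deposited FPKM values, 1 pooled column per group, and the sources used here do not say how the 2 or 3 libraries of each were pooled. Per the submitters' processing notes, the build was mm9 and the tools were TopHat, Bowtie, BWA, Cuffdiff, Cufflinks, Trim Galore, FastQC, HOMER and CASAVA, given without roles or versions. The 9 chromatin immunoprecipitation samples were not analysed here.

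From the deposited FPKM, differences were computed as log2(FPKM + 1), first-named group minus second, in 18 comparisons, and folds as ratios of FPKM without the pseudocount. Genes with at least 1 FPKM in at least 1 group were kept (14273 of 22552), and differences of 1 or more in size were counted. A linear model was planned for values per library and could not be fitted to 1 value per group, so no test was made and only descriptions are given. All 14 genes of a ubiquitous list were above 0 in every group. The 10 genes, the other 27 gene lists and the threshold were chosen with earlier results of these data known. Besides the 10 genes, the rule for names took up to 2 with the largest differences in a list. It also took other C1q chains and cell markers beside a result, and the genes most like a profile. Csf1 at p13, Ccl2, Ccr2, Cpa3, Kit, Prg2, Esr1, Pgr, Slc2a4, Sfpi1 and Ccl7 in virgin Ezh2 KO were named after their values were seen. Promoter sequences came from RefSeq (GRCm38.p6), and no coordinates of the mm9 files are given. The functions were tested on simulated data. Alternatives were filters of 5 FPKM or none, pseudocounts of 5 and 0.1, and scaling to a common sum, a common upper quartile or a common sum without milk proteins. Python 3.11.15, pandas 2.3.3, NumPy 2.4.6 and matplotlib 3.10.9 were used.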

Additional observations from a re-analysis of the deposited data

Results flagged for a closer look

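Marco, the scavenger receptor gene, differed after prolactin in opposite directions in the 2 virgin genotypes, at -3.17 (log2) in Ezh2 KO glands and 2.63 in control glands, a gap of -5.80 between the 2. This difference between genotypes was not tested, since each group has 1 pooled value. The summed level of 14 B and T lymphocyte genes went the same way, at 23.0 FPKM with prolactin, against 388 without, in Ezh2 KO glands, and at 320 with prolactin, against 37.5 without, in control glands.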

How the results depend on the processing

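Of 180 differences (10 genes in 18 comparisons), 45 were past the threshold. Of these, 22 were past it under every setting tried, 23 were under it in at least 1, and 0 reversed. With a pseudocount of 5 the count of genes past it was 1 for p13 Ezh2 KO against control (6 as reported), 2 for p13 Ezh1 het Ezh2 KO against Ezh2 KO (4), and 0 for p13 Ezh1 het Ezh2 KO against control, p18 Ezh1 het Ezh2 KO against control and p18 Ezh1 het Ezh2 KO against Ezh2 KO (1 each), as a larger pseudocount shrinks the differences of low genes by construction. With a common upper quartile it was 3 for p18 against p13 control (7) and 4 for p18 against p13 Ezh1 het Ezh2 KO (8). With a common sum it was 5 for p13 against virgin Ezh2 KO (3). With a common sum, the same without milk proteins, and the same without milk, muscle and erythroid genes, it was 2 for prolactin in control (1) and 3 for prolactin in Ezh2 KO (1), and with the last 2 it was 2 for p18 Ezh1 het Ezh2 KO against control (1). For these scalings the cause was not tested. The last scaling, and p13 Ezh1 KO in place of p13 control, were chosen after seeing the data. No paired analysis was possible because each group has 1 pooled column, and leaving out libraries was not possible for the same reason.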
